A study of Mus musculus with 8 samples.

Results

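The genes described here are 9 genes of mouse chromosome 17 whose RNA levels differed between Tsc2 mut/mut and Tsc2 wt/wt mice: Rnaset2b, Flywch2, Bricd5, Gnptg, 1110038B12Rik, A930015D03Rik, H2-T22, Pla2g7 and Lrrc73. They are 9 of the 32285 genes in the count matrices and 9 of the 1446 that lie on chromosome 17. They were chosen by their measured difference between the genotypes, since they are all of the chromosome 17 genes that passed an adjusted p of 0.05 in barcodes of 100 to under 200 genes. Their genotype values are therefore given as a description without a test. By the same choice, no other gene of the chromosome could pass in those barcodes, and nothing is read from their adjusted p there. The name "linked to the Tsc2 allele" was not tested, because DNA was not analysed here.

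Nuclei came from the ventricular-subventricular zone (V-SVZ), the neurogenic niche along the lateral ventricles, of 8 mice at postnatal day 90. The groups were 4 mice labelled Tsc2 wild (wt/wt) and 4 labelled Tsc2 mutant/mutant (mut/mut), with 1 library per mouse. From each mouse 100000 nuclei positive for tdTomato, the red reporter that Cre recombinase switches on, were sorted, so both groups carried the reporter and Cre. How Cre was delivered to these mice was not given in the sources used here, nor whether they were littermates.

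Tsc2 encodes tuberin, the subunit of the TSC complex that restrains mTORC1. The conditional Tsc2 allele was made by gene targeting on chromosome 17. A targeted allele is passed on together with the stretch of chromosome around it, so neighbouring genes reach the offspring in the form carried by the targeted chromosome until recombination separates them. For genes of chromosome 17, loss of Tsc2 and the chromosome that carries the allele therefore cannot be told apart by comparing mut/mut with wt/wt mice.

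Some of the members have well-known products. Rnaset2b and its copy Rnaset2a encode RNase T2, an acid ribonuclease of lysosomes that is also secreted. Gnptg encodes the gamma subunit of the enzyme that starts the mannose 6-phosphate tag on lysosomal enzymes, and Pla2g7 the secreted phospholipase that inactivates platelet-activating factor. H2-T22 is a nonclassical MHC class I gene. Flywch2 belongs to the FLYWCH zinc finger family, Bricd5 encodes a BRICHOS domain protein and Lrrc73 a leucine-rich repeat protein. 1110038B12Rik is a noncoding transcript that hosts small nucleolar RNAs, and A930015D03Rik is annotated as an antisense RNA.

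On GRCm38 (GENCODE M21), Tsc2 lies on the minus strand of chromosome 17 from 24595816 to 24632630. Bricd5 is the nearest member, 0.120 Mb away (from 24473884 to 24475469, plus strand). Gnptg (from 25233331 to 25240124, minus strand) is 0.601 Mb away on the other side, and Flywch2 (from 23776916 to 23786081, minus strand) is 0.810 Mb away on the side of Bricd5. The other members are farther. Rnaset2b (from 6970634 to 7011299, plus strand) lies 17.6 Mb towards the centromere. On the opposite side, 1110038B12Rik (from 34950238 to 34952471, minus strand) is at 10.3 Mb and A930015D03Rik (from 35994453 to 36038435, plus strand) at 11.4 Mb. H2-T22 (from 36037128 to 36042747, minus strand) is also at 11.4 Mb, Pla2g7 (from 43568098 to 43612201, plus strand) at 18.9 Mb and Lrrc73 (from 46253531 to 46257315, plus strand) at 21.6 Mb.

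Several members share sequence or position with other genes, which limits what a count says. In transcripts of Rnaset2b, 57.2% of all 50-base words also occur in another gene, nearly all of them in Rnaset2a, which lies from 8115445 to 8148097 on the minus strand. The corresponding share was 34.5% for H2-T22, mostly with H2-T10, and 26.1% for A930015D03Rik, all with BC023719. It was 1.59% for 1110038B12Rik and 0% for the other 5 members. H2-T22 and A930015D03Rik lie on opposite strands and share 1308 bases of gene body (from 36037128 to 36038435), of which 1003 are exonic in both. Bricd5 overlaps Mlst8, Gnptg overlaps Unkl, Flywch2 overlaps Gm16275 and Pla2g7 overlaps 1700071M16Rik, in each case on the opposite strand. Whether the strand was used in counting was not given in the sources used here, so reads of such pairs cannot be told apart with certainty. On the same strand, Rnaset2b overlaps Gm49721, and 1110038B12Rik overlaps Snord52 and Gm25744.

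The start regions of Rnaset2b and Rnaset2a show how alike these copies are, and that of Bricd5 belongs to the member nearest to Tsc2. Each window runs from 250 bases before to 50 bases after a transcription start in RefSeq (GRCm38.p6), 5′ to 3′ on the strand of the gene. RefSeq lists 2 starts for Rnaset2a, and the window that matches Rnaset2b is shown. In the first 2 windows, capitals mark the longest identical stretch, of 153 bases. In the last one they mark a CCAAT motif.
Rnaset2b (chr17:6978610-6978909, plus strand): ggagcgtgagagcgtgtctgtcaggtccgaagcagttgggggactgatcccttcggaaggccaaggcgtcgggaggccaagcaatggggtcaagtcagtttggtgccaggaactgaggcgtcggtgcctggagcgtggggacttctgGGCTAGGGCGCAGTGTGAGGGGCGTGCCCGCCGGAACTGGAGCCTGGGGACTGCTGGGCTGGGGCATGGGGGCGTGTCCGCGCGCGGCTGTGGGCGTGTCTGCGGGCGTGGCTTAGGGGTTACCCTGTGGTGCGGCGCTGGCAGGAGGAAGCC
Rnaset2a (chr17:8147738-8148037, minus strand): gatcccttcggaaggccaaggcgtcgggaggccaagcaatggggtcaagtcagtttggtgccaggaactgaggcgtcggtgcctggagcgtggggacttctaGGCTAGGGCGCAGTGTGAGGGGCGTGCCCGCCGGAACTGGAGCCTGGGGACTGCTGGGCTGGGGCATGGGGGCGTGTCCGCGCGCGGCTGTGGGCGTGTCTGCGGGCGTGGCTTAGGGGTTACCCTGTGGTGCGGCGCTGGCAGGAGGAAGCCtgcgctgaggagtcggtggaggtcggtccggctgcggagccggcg
Bricd5 (chr17:24473634-24473933, plus strand): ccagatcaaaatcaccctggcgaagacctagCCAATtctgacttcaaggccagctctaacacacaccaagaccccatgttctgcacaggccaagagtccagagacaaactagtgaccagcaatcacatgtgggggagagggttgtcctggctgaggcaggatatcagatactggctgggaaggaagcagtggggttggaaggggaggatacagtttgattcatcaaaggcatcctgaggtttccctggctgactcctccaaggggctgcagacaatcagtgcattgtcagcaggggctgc
Laid along their shared stretch without gaps, the Rnaset2b and Rnaset2a windows had 255 bases side by side, of which 1 differed: G147A, with the position counted from 1 at the 5′ end of the Rnaset2b window and the base of Rnaset2b given first. The Rnaset2b window held 23 CpG dinucleotides and the Bricd5 window held 1, against a median of 7 over 27025 promoters of the same length. 4 promoter motifs were searched for on both strands of each of these windows. The TATA box was searched as TATAAA, and it is found in 14.2% of all promoters of that length. The CCAAT box was searched by the letters of its name and is found in 37.9% of them. The GC box was searched as GGGCGG, which is found in 35.9% of the same promoters. The E box was searched as CACGTG, which is found in 7.24% of them. No match for these letters is in the Rnaset2b or Rnaset2a window, and the Bricd5 window has 1 CCAAT box. RefSeq windows were found for each member except A930015D03Rik.

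Each library held 60000 barcodes and from 11182335 to 36773832 unique molecular identifiers (UMIs), the counts of single RNA molecules. Barcodes of 100 to under 200 genes numbered from 7774 to 36622 per mouse, and 48.0% to 49.8% of their UMIs were mitochondrial. They held the most UMIs summed over all mice, 65907829 against 51363263 in barcodes with at least 300 genes, but only 275 to 409 per barcode as a median by mouse, and whether their RNA was free in the preparation was not tested. Barcodes with at least 300 genes numbered from 1923 to 10153 per mouse, with a median of 888 to 1324.5 UMIs per barcode and 34% to 44.6% mitochondrial UMIs. Only 3470 of these 37881 barcodes held under 20% mitochondrial UMIs, and these are called nucleus-like. Levels are UMIs of a gene per 1000000 UMIs of the same barcodes in that mouse (CPM). Of the kept barcodes, 166 sequences occurred in more than 1 mouse. Tsc2 mut/mut replicate 4 stood apart, with 161 nucleus-like barcodes gated as choroid plexus by marker genes and 6 as astrocyte or neural stem cell (NSC). Tsc2 itself had 11.0 ± 2.00 CPM (SD, n = 4) in wt/wt and 9.60 ± 1.10 (SD, n = 4) in mut/mut in barcodes of 100 to under 200 genes, and the groups overlapped. Its log2 fold change was −0.10 (SE 0.16, adjusted p = 0.94, edgeR's quasi-likelihood test). Reads near the 3′ end of a transcript do not check a deletion of inner exons.

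In mut/mut mice, 3 members had higher levels than in wt/wt mice (Bricd5, Flywch2, 1110038B12Rik) and 6 had lower levels. The groups of 4 mice did not overlap for any of the 9 members in barcodes of 100 to under 200 genes, and for 7 of 9 in barcodes with at least 300 genes. Over all genes tested, the groups did not overlap for 5.72% and 2.16%, respectively. Of the 7, A930015D03Rik was apart by only 8.827 in the lowest wt/wt against 8.817 CPM in the highest mut/mut mouse. With choroid plexus-gated barcodes left out it overlapped (8.88 against 9.04), and 6 of 9 members did not overlap. In the nucleus-like barcodes alone, 3 of 9 members did not overlap. The share over all genes was not counted for nucleus-like barcodes, nor with choroid plexus-gated barcodes left out, so these 3 and 6 of 9 have no background. An adjusted p of 0.05 was passed by 0.227% of 11880 genes in the small barcodes and by 0.0153% of 13060 genes in the larger ones, where the only called genes were Bricd5 and Rnaset2b. Nothing is read from these counts, since the members were picked on this contrast.

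Bricd5 and Rnaset2b had the widest differences. Bricd5 measured 1.26, 0.974, 0.847 and 1.17 CPM in wt/wt replicates 1 to 4 and 14.5, 15.9, 15.3 and 17.9 in mut/mut replicates 1 to 4 in barcodes of 100 to under 200 genes. Every mut/mut mouse was above every wt/wt mouse, and the log2 fold change was 3.94 (SE 0.23). In barcodes with at least 300 genes Bricd5 ranged from 0 to 0.802 in wt/wt and from 8.53 to 15.6 in mut/mut, with a log2 fold change of 4.61 (SE 0.52). Rnaset2b went the other way, with 3.56, 6.02, 5.08 and 4.17 CPM in wt/wt and 0.243, 0.109, 0.482 and 0.218 in mut/mut in the small barcodes. These levels rested on 122 UMIs in wt/wt and 10 in mut/mut, and the log2 fold change was −4.17 (SE 0.37). Rnaset2b in the larger barcodes ranged from 6.96 to 15.8 in wt/wt and from 0.183 to 0.946 in mut/mut, with a log2 fold change of −3.95 (SE 0.42). Its copy Rnaset2a, with 10.5 ± 1.87 CPM in wt/wt and 9.88 ± 3.54 in mut/mut (SD, n = 4 each) in the small barcodes, had a log2 fold change of 0.04 (SE 0.25, adjusted p = 0.99, edgeR). How reads were split between the copies was not tested.

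Gnptg and Pla2g7 were lower in mut/mut. Gnptg had 19.5, 16.7, 16.5 and 17.7 CPM in wt/wt and 8.01, 12.03, 9.49 and 10.1 in mut/mut in barcodes of 100 to under 200 genes, with a log2 fold change of −0.77 (SE 0.16). Pla2g7 had 190, 146, 146 and 153 in wt/wt and 100, 107, 96.2 and 89.4 in mut/mut, with a log2 fold change of −0.64 (SE 0.11). The lowest wt/wt mouse stayed above the highest mut/mut mouse for both genes, and this held in barcodes with at least 300 genes too. In that class Gnptg ranged from 17.4 to 21.4 against 9.81 to 14.7, and Pla2g7 from 175 to 197 against 96.1 to 136.

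The MHC pair H2-T22 and A930015D03Rik was lower in mut/mut as well. A930015D03Rik had 10.1, 6.64, 8.05 and 9.67 CPM in wt/wt and 2.02, 2.30, 2.25 and 2.11 in mut/mut in barcodes of 100 to under 200 genes, with a log2 fold change of −1.91 (SE 0.21). H2-T22 had 3.77, 4.34, 5.08 and 5.00 in wt/wt and 1.70, 1.75, 1.77 and 1.60 in mut/mut, with a log2 fold change of −1.34 (SE 0.24). The mut/mut mice lay within a narrow band for both genes. The classical class I genes H2-K1 and H2-D1, which present peptides on nearly all cells, had log2 fold changes of −0.04 (SE 0.15, adjusted p = 0.99, edgeR) and −0.05 (SE 0.22, adjusted p = 0.99, edgeR) in the same barcodes. In barcodes with at least 300 genes the values were −1.08 (SE 0.29) for A930015D03Rik and −0.84 (SE 0.33) for H2-T22. The classical genes had the same direction there, with −0.46 (SE 0.21) for H2-K1 and −0.50 (SE 0.24) for H2-D1, each with an adjusted p of 1.00 in edgeR and unadjusted p of 0.054 and 0.061. H2-T23, which overlaps A930015D03Rik on the opposite strand, was tested only there and had −0.77 (SE 0.46, adjusted p = 1.00, edgeR).

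Lrrc73, Flywch2 and 1110038B12Rik complete the set. Lrrc73 had 15.9, 15.4, 8.90 and 13.7 CPM in wt/wt and 6.64, 7.22, 4.98 and 7.33 in mut/mut in barcodes of 100 to under 200 genes, with a log2 fold change of −1.01 (SE 0.18). Flywch2 had 7.55, 5.49, 7.2 and 6.84 in wt/wt and 9.87, 12.6, 13.8 and 14.2 in mut/mut, with a log2 fold change of 1.00 (SE 0.19). 1110038B12Rik had 25.6, 23.1, 25.8 and 26.2 in wt/wt and 39.2, 34.7, 35.1 and 42.9 in mut/mut, with a log2 fold change of 0.66 (SE 0.13). In barcodes with at least 300 genes the groups of Flywch2 and 1110038B12Rik overlapped, with Flywch2 from 2.94 to 11.9 in wt/wt and from 7.68 to 25.1 in mut/mut. The highest Flywch2 value was that of mut/mut replicate 4, the mouse with most choroid plexus barcodes. Without this mouse the log2 fold change of Flywch2 in the larger barcodes went from 1.21 to 0.63, and that of 1110038B12Rik from 0.58 to 0.29. In the small barcodes the 11 choroid plexus markers summed to 66.9 to 108 CPM in wt/wt and to 62.2 to 97.1 in mut/mut, with no marker at 0 in all mice, so the groups overlapped there. In the larger barcodes they summed to 405 to 1411 and to 501 to 857. Mut/mut replicate 4 had 740 there, below wt/wt replicate 1 at 1411 and mut/mut replicate 1 at 857. The part of choroid plexus RNA in these results was not tested. The 12 astrocyte or NSC markers summed to 5854 to 6275 in wt/wt and to 4885 to 6239 in mut/mut, also with none at 0. In the larger barcodes they summed to 8410 to 9554 in wt/wt and to 5652 to 9604 in mut/mut, where the 2 lowest mice, mut/mut replicates 2 and 4 (6314 and 5652), also had the lowest Pla2g7 (102 and 96.1). Their part in the Pla2g7 values was not tested. A sum over barcodes does not tell fewer cells of a type from less RNA per cell.

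**Figure D1:**
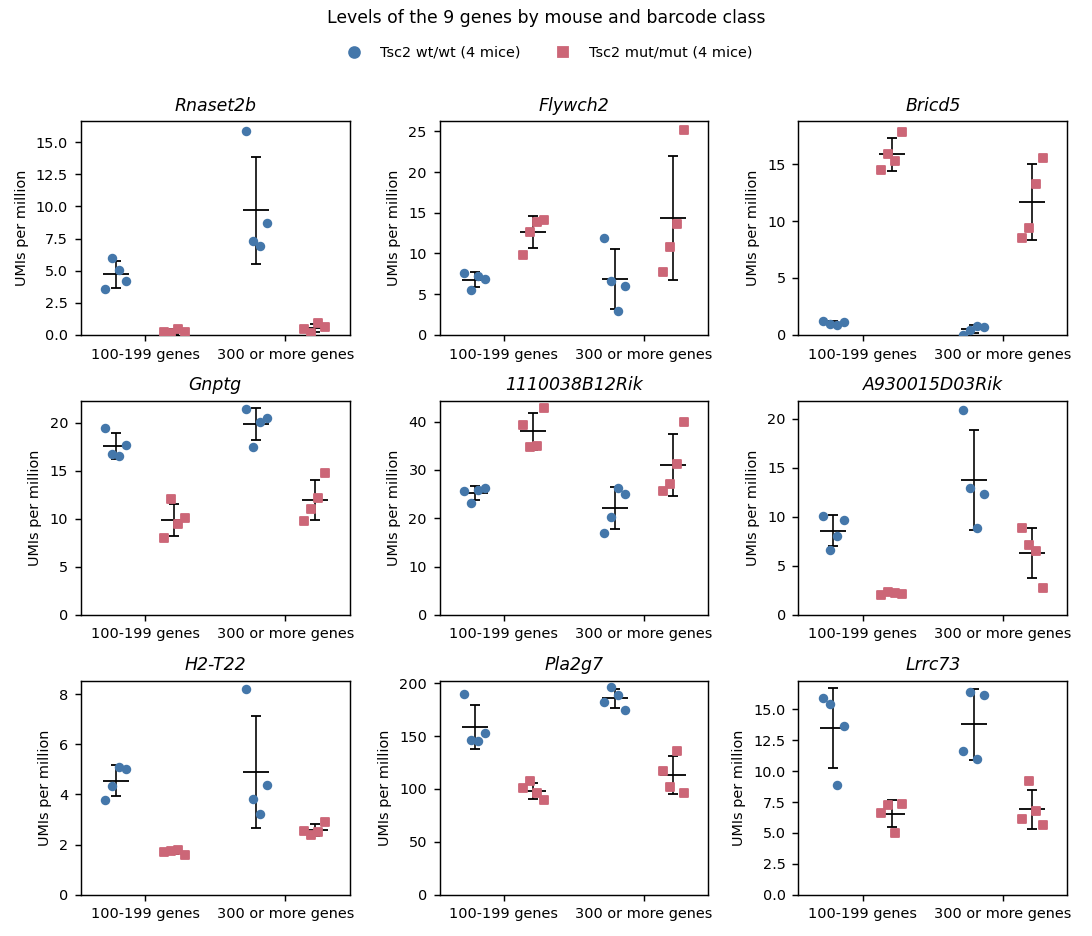
Levels of the 9 members in CPM (UMIs per 1000000 UMIs, vertical axis, linear, from 0) in barcodes of 100 to under 200 genes and in barcodes with at least 300 genes. Each point is 1 mouse (circles: Tsc2 wt/wt, squares: Tsc2 mut/mut) and the bars are the mean and SD over 4 mice. The groups lie apart for all 9 members on the left of each panel and overlap for Flywch2 and 1110038B12Rik on the right.

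The members were set beside the other genes of the chromosome by distance from Tsc2. In barcodes of 100 to under 200 genes, 561 genes of chromosome 17 were tested. Within 1 Mb of Tsc2, 56 genes other than the members were tested, and 12 of them (21.4%) had an unadjusted p under 0.05. This share was 9.52% of 84 genes from 1 to 5 Mb, 11.8% of 93 genes from 5 to 10 Mb, 7.93% of 164 genes from 10 to 25 Mb and 7.10% of 155 genes beyond 25 Mb. On the other chromosomes it was 7.54% of 11317 genes, a share that kept the 18 called genes there. With the members counted, it was 25.4% of 59 genes within 1 Mb and 11.2% of 170 genes from 10 to 25 Mb. The other bins held no members. In barcodes with at least 300 genes the share without the members was 11.7% of 60 genes within 1 Mb. It was 6.12%, 4.85% and 3.24% in the bins that follow, 0% of 171 genes beyond 25 Mb and 2.45% on the other chromosomes. With the members counted, it was 15.9% of 63 genes within 1 Mb and 5.76% of 191 genes from 10 to 25 Mb. These shares are a description. In barcodes of 100 to under 200 genes, no other gene of this chromosome could pass the adjusted threshold, since all that passed are members. In barcodes with at least 300 genes, none of the genes outside the members passed it on this chromosome. On the other chromosomes 0 of 12433 genes passed it there, so this is not particular to chromosome 17. No member lay beyond 21.6 Mb from Tsc2.

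**Figure D2:**
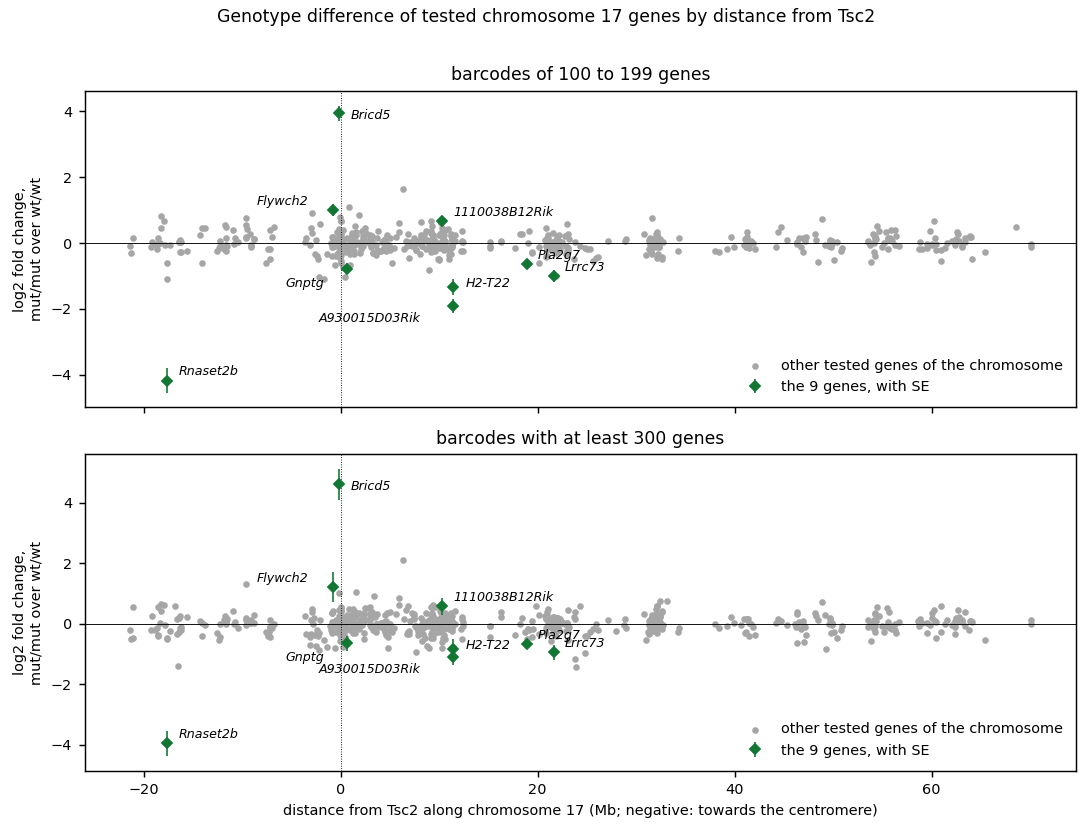
Log2 fold change of mut/mut over wt/wt (vertical axis) of each tested gene of chromosome 17 against its distance from Tsc2 in Mb (horizontal axis, negative towards the centromere), for the 2 barcode classes. Diamonds are the 9 members with their SE and grey points the other genes. Bricd5 at 3.94 and Rnaset2b at −4.17 stand far from the grey points in the upper panel, while the other 7 members lie between −1.91 and 1.00.

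The genes next to the members were looked at in the same fits. The nearest tested gene on either side of each member gave 17 genes outside the set, and 14 of them were tested in barcodes of 100 to under 200 genes. Of these, 0 passed an adjusted p of 0.05, which the choice fixed, since every chromosome 17 gene that passed there is a member. Nothing is therefore read from the adjusted p of chromosome 17 genes in this paragraph. An unadjusted p under 0.05 was had by 1 of the 14, namely Tagap1, next to Rnaset2b. Its log2 fold change was −1.08 (SE 0.38, adjusted p = 0.41, edgeR). The gene on the strand opposite to Bricd5, Mlst8, whose product is a subunit of both mTOR complexes, had −0.14 (SE 0.20, adjusted p = 0.93, edgeR). Unkl, opposite to Gnptg, had −0.28 (SE 0.21, adjusted p = 0.82, edgeR). The neighbours of Tsc2 itself, Pkd1 (polycystin 1) and Nthl1 (a DNA glycosylase), had −0.19 (SE 0.22, adjusted p = 0.90, edgeR) and 0.67 (SE 0.33, adjusted p = 0.65, edgeR). Among relatives elsewhere, Flywch1, next to Flywch2, had −0.13 (SE 0.11, adjusted p = 0.84, edgeR), Gnptab, which encodes the other subunits of the Gnptg enzyme, had 0.19 (SE 0.18, adjusted p = 0.86, edgeR), and Pafah2, which encodes a related acetylhydrolase, had −0.03 (SE 0.31, adjusted p = 1.00, edgeR). On the edge of the choice, Gnptg was the last chromosome 17 gene inside the threshold and Glo1 the first outside it, with log2 fold changes of −0.77 (SE 0.16) and 0.60 (SE 0.14).

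An interaction of genotype and barcode class compares the genotype difference between the classes. Of 13432 genes, 0 passed an adjusted p of 0.05 in edgeR (0% of those tested), while 296 had an unadjusted p under 0.05. For the members it is a description, because it subtracts the difference in the small barcodes on which they were chosen, and a choice on large values by itself brings the other class closer to 0. A930015D03Rik had 0.81 (SE 0.31), H2-T22 0.56 (SE 0.40), Bricd5 0.65 (SE 0.54) and Pla2g7 −0.03 (SE 0.18) on the log2 scale.

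Where in the preparation the RNA of each member was found was compared within mice, a contrast on which the members were not chosen. The choice did use the counts of the small barcodes, a side of this contrast, and may favour genes well counted there. This was not tested, and nothing is read from how many members were lower. Against barcodes of 100 to under 200 genes, 6 of 9 members were lower in barcodes with at least 300 genes, where 33.4% of 12189 genes were lower, and 1 was higher, where 39% of genes were higher. Bricd5 fell most, with a log2 fold change of −1.10 (SE 0.17, adjusted p = 2.3e-05, edgeR with mouse as a block). It was lower in 8 of 8 mice, with a mean of 6.08 against 8.47 CPM over all mice. In wt/wt mice this rested on 0 to 4 against 2 to 11 UMIs, and the gene passed the minimum count through the mut/mut mice, where it is high, so that no value was had without any 1 of them. 1110038B12Rik had −0.84 (SE 0.10, adjusted p = 1.4e-06, edgeR) and was lower in 7 of 8 mice. Lrrc73 (−0.52, SE 0.12), Flywch2 (−0.50, SE 0.18), Pla2g7 (−0.36, SE 0.08) and Gnptg (−0.36, SE 0.10) also passed as lower in edgeR, with adjusted p of 0.0011, 0.019, 0.00056 and 0.0042. A930015D03Rik was higher, at 0.44 (SE 0.18, adjusted p = 0.035, edgeR), and its level was higher in 8 of 8 mice. Rnaset2b (0.37, SE 0.23, adjusted p = 0.16, edgeR) and H2-T22 (−0.28, SE 0.20, adjusted p = 0.20, edgeR) did not pass. Rnaset2b reached the minimum count through the wt/wt mice, where it is high, so that no value was had without any 1 of them. Without mut/mut replicate 4, H2-T22 had −0.43 and passed (adjusted p = 0.045, edgeR).

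The edgeR fold changes are relative to the typical gene of each class, and the direction of some depended on that scale. As CPM of all UMIs, Gnptg was higher in the larger barcodes in 7 of 8 mice (15.9 against 13.8 on average), Pla2g7 in 6 of 8, Lrrc73 in 5 of 8 and Flywch2 in 3 of 8. As CPM of non-mitochondrial UMIs, Gnptg, Pla2g7 and Lrrc73 were each higher in 3 of 8 mice and Flywch2 in 2 of 8. Bricd5 was lower in 8 of 8 mice and A930015D03Rik higher in at least 7 of 8 on both of these scales. The call of A930015D03Rik was lost without wt/wt replicate 1 or 2 or mut/mut replicate 1, 2 or 3, with a log2 fold change from 0.31 to 0.56 over all mice left out and adjusted p up to 0.12 (edgeR). The call of Flywch2 was lost without mut/mut replicate 1, 2 or 3, with −0.39 to −0.73 over all mice left out.

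Within barcodes of at least 300 genes, the nucleus-like ones were compared with the mitochondria-rich ones, which carry cytoplasmic RNA, again within mice. Mitochondrial genes were left out of this fit since they made the split. Of the 8 members tested, 6 were lower in nucleus-like barcodes, where 38.8% of 11231 genes were lower, and 1 was higher, where 39.3% were higher. The snoRNA host 1110038B12Rik was lowest, with a log2 fold change of −3.03 (SE 0.26, adjusted p = 6.9e-07, edgeR). It had 10.4 ± 5.41 CPM in nucleus-like and 31.5 ± 7.08 in mitochondria-rich barcodes (SD, n = 8), and was lower in 8 of 8 mice. Lrrc73 (−2.04, SE 0.27, adjusted p = 2.0e-05, edgeR) and Pla2g7 (−2.03, SE 0.27, adjusted p = 1.9e-05, edgeR) were lower in 6 and 7 of 8 mice as CPM of all UMIs. Both were lower in 8 of 8 as CPM of non-mitochondrial UMIs.

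The antisense RNA A930015D03Rik was the member found more in nucleus-like barcodes, at 25.4 ± 9.53 against 5.08 ± 3.84 CPM (SD, n = 8), higher in 8 of 8 mice. Its log2 fold change was 0.99 (SE 0.23, adjusted p = 0.0016, edgeR). H2-T22 on the other strand had −0.81 (SE 0.26, adjusted p = 0.013, edgeR). With 1 mouse left out, H2-T22 had a value in only 5 of the 8 runs, from −1.06 to −0.74. Rnaset2b was higher in nucleus-like barcodes in 8 of 8 mice on both scales, but its log2 fold change of 0.75 (SE 0.39, adjusted p = 0.096, edgeR) did not pass. In mut/mut replicates 1 to 4 its direction rested on 3, 1, 8 and 2 nucleus-like UMIs. These were out of 3, 1, 11 and 3 UMIs in all barcodes with at least 300 genes. The gene reached the minimum count through the wt/wt mice, where it is high, and had no value without any 1 of them. Gnptg (−0.76, SE 0.22, adjusted p = 0.0065, edgeR), Flywch2 (−0.89, SE 0.34, adjusted p = 0.028, edgeR) and H2-T22 passed as lower relative to the typical gene. As CPM of all UMIs these 3 were higher in 8, 5 and 6 of 8 mice, so their direction depended on the scale. The call of Flywch2 was lost without any 1 of 5 mice (wt/wt replicates 1 and 2, mut/mut replicates 1, 2 and 3), with adjusted p up to 0.080 in edgeR. Bricd5 did not reach the minimum count for this test. Its 340 UMIs in barcodes of mut/mut mice with at least 300 genes split into 15 in nucleus-like and 325 in mitochondria-rich barcodes, or 0 to 3.02 and 11.3 to 19.2 CPM by mouse.

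**Figure D3:**
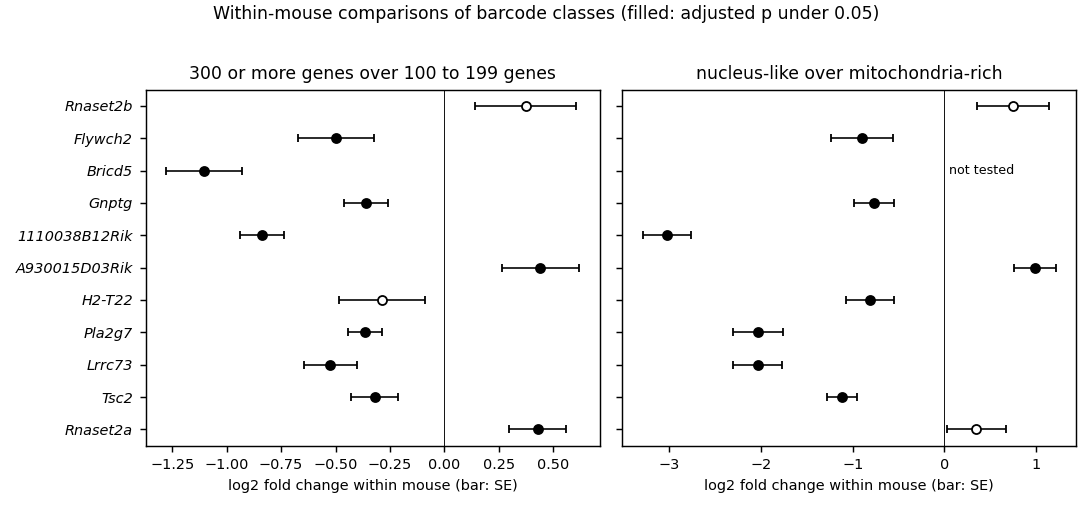
Log2 fold change within mice (horizontal axis) with its SE for the 9 members, Tsc2 and Rnaset2a, for barcodes with at least 300 genes over those of 100 to under 200 genes (left) and for nucleus-like over mitochondria-rich barcodes (right). Filled circles passed an adjusted p of 0.05 in edgeR. 1110038B12Rik lies at −3.03 and A930015D03Rik at 0.99 on the right, and Bricd5 was not tested there.

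Nucleus-like barcodes were assigned to cell types where at least 3 markers of a type were detected and more than of any other type. This gave 1275 astrocyte or NSC, 271 ependymal, 442 choroid plexus, 567 oligodendrocyte, 551 microglia, 122 inhibitory neuron or neuroblast and 71 endothelial barcodes over all mice. Each of the first 5 types was compared with the other nucleus-like barcodes of the same mice. Mice with under 10 barcodes of a type were left out, among them mut/mut replicate 4 in each type but choroid plexus, wt/wt replicate 3 for choroid plexus and wt/wt replicate 4 for ependymal. Few members reached the minimum count: Pla2g7 and A930015D03Rik in each of the 5 fits, Gnptg in 2 and Flywch2 in 1.

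Pla2g7 was highest in astrocyte or NSC barcodes. It was the 1 of 3 tested members that was higher in astrocyte or NSC barcodes (28.5% of 9153 genes were higher and 33.5% lower), with a log2 fold change of 3.30 (SE 0.26, adjusted p = 2.8e-07, edgeR). Summed over mice, Pla2g7 measured 272 CPM in astrocyte or NSC barcodes (exact Poisson 95% interval 258 to 287, counting error only). Ependymal barcodes followed with 90.02 (70.6 to 113), microglia with 43.8 (32.0 to 58.4) and oligodendrocytes with 25.6 (18.1 to 35.1). Choroid plexus had 10.1 (6.80 to 14.4). The intervals of microglia and oligodendrocytes overlapped. Pla2g7 was lower than in the other barcodes in choroid plexus (log2 fold change −3.16, SE 0.32, adjusted p = 7.1e-09), oligodendrocytes (−2.43, SE 0.31, adjusted p = 8.4e-06) and microglia (−1.78, SE 0.36, adjusted p = 0.00048) in edgeR. In ependymal barcodes it had −0.55 (SE 0.24, adjusted p = 0.073, edgeR). Its level in the small barcodes, 89.4 to 190 by mouse, was above the summed level in microglia, oligodendrocytes and choroid plexus, and the share of free RNA in those counts was not tested.

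The genotype difference of Pla2g7 was seen within the astrocyte or NSC gate among the 7 mice with at least 10 such barcodes. There it ranged from 312 to 397 CPM in 4 wt/wt mice and from 175 to 206 in 3 mut/mut mice, with no overlap. Mut/mut replicate 4, left out with 6 barcodes, had 510 CPM on 8 UMIs, above every wt/wt mouse. In ependymal barcodes it ranged from 62.7 to 161 in 3 wt/wt and from 37.8 to 73.2 in 3 mut/mut mice, which overlapped. In microglia the direction was opposite, with 0 to 42.2 in 4 wt/wt and 47.0 to 64.9 in 3 mut/mut mice, on 12 and 34 UMIs. These groups did not overlap, but mut/mut replicate 4, left out with 6 barcodes, had 0 UMIs. Oligodendrocytes had 8.76 to 32.9 in 4 wt/wt and 18.7 to 39.6 in 3 mut/mut mice. Choroid plexus had 0 to 16.3 in 3 wt/wt and 6.92 to 13.0 in 4 mut/mut mice. The groups overlapped in both of these types. These are descriptions of the contrast that chose the gene.

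Rnaset2b and Flywch2 were found mostly in choroid plexus, the epithelium that makes cerebrospinal fluid, with 84 of 132 and 147 of 171 of their UMIs in gated barcodes. Of the 4 members tested in choroid plexus, 2 were higher (35.9% of 7560 genes were higher) and 2 lower (47.2% were lower), and the median of all genes there was −0.46 on the log2 scale. Flywch2 had a log2 fold change of 4.39 (SE 0.39, adjusted p = 1.2e-09, edgeR) and Gnptg 1.51 (SE 0.29, adjusted p = 5.6e-05, edgeR), which is 4.85 and 1.97 above that median. Flywch2 reached the minimum count through the choroid plexus barcodes, where it is high, so nothing is read from its direction or p here. Its nucleus-like UMIs were 19, 11, 0 and 16 in wt/wt replicates 1 to 4 and 17, 14, 44 and 53 in mut/mut. Of these, 19, 9, 0 and 13 and 9, 9, 37 and 51 were in choroid plexus barcodes. A930015D03Rik had −1.41 (SE 0.35, adjusted p = 0.00080, edgeR), or −0.95 relative to the median. Flywch2 measured 49.4 CPM in choroid plexus (41.7 to 58.0, Poisson), against 2.87 (1.57 to 4.82) in astrocyte or NSC and 2.69 (0.733 to 6.90) in oligodendrocyte barcodes. Within the choroid plexus gate, Flywch2 ranged from 34.4 to 61.1 in 3 wt/wt mice and from 31.4 to 60.2 in 4 mut/mut mice, so the groups overlapped there. Gnptg ranged from 33.97 to 56.2 and from 17.5 to 27.7, with no overlap. In the astrocyte or NSC, ependymal, oligodendrocyte and microglia gates its groups overlapped. It ranged there from 14.6 to 19.8 in wt/wt against 13.9 to 14.7 in mut/mut for astrocyte or NSC. For oligodendrocytes it ranged from 15.1 to 23.5 against 10.6 to 26.1.

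Rnaset2b reached the minimum count in none of these fits and is given by its counts. In choroid plexus barcodes it had 48, 9, 6 and 19 UMIs in wt/wt replicates 1 to 4, the third of these from a single barcode, and 1, 0, 0 and 1 in mut/mut. This made 82.4 CPM (65.6 to 102, Poisson) in wt/wt and 1.01 (0.122 to 3.64) in mut/mut. Microglia had 17 UMIs in wt/wt, or 39.9 CPM (23.2 to 63.8), and 7 in mut/mut, or 11.2 (4.51 to 23.1). Astrocyte or NSC barcodes had 5.76 (3.15 to 9.67) and 1.64 (0.446 to 4.19). Oligodendrocytes had 0 of 1485051 UMIs, which allows up to 2.02 CPM by 3 counts of that total (2.48 by the upper Poisson limit). Rnaset2a was likewise found in choroid plexus, with a log2 fold change of 3.93 (SE 0.27, adjusted p = 7.0e-11, edgeR). It measured 143 to 221 CPM there in 3 wt/wt mice and 73.9 to 158 in 4 mut/mut mice, which overlapped. Summed by genotype, Rnaset2a had 208 CPM there (181 to 238, Poisson) in wt/wt and 96.3 (83.2 to 111) in mut/mut. Astrocyte or NSC barcodes had 7.32 to 17.1 in 4 wt/wt and 2.14 to 4.90 in 3 mut/mut mice, with no overlap. Mut/mut replicate 4, left out with 6 barcodes, had 63.8 on 1 UMI. Summed levels went the other way in microglia (39.9 in wt/wt and 65.6 in mut/mut), ependymal and oligodendrocyte barcodes. Without choroid plexus barcodes, Rnaset2b in barcodes of at least 300 genes ranged from 3.71 to 6.48 in wt/wt and from 0.191 to 0.998 in mut/mut, still with no overlap.

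The other members rested on few UMIs per cell type. A930015D03Rik had 28.9 CPM (24.3 to 34.1, Poisson) in astrocyte or NSC, 38.2 (26.0 to 54.3) in ependymal, 25.6 (18.1 to 35.1) in oligodendrocyte and 42.8 (31.2 to 57.3) in microglia barcodes, whose intervals overlapped in order. It passed in none of these 4 fits, in which the background was 24.3% higher and 28.3% lower of 6351 genes for ependymal, 22.5% and 31% of 6853 genes for oligodendrocyte and 25.1% and 32.6% of 6728 genes for microglia. Its log2 fold change ranged from 0.05 (SE 0.29) in oligodendrocytes to 0.69 (SE 0.33) in microglia, with adjusted p from 0.90 to 0.079 in edgeR. H2-T22 had its highest level in endothelial barcodes, with 13 of its 59 UMIs in gated barcodes or 33.6 CPM (17.9 to 57.5), against at most 5.37 in the 5 types compared. Lrrc73 measured from 1.90 (0.230 to 6.87) in microglia to 14.8 (7.65 to 25.8) in ependymal barcodes, and 1110038B12Rik from 6.36 (4.32 to 9.03) in astrocyte or NSC to 21.8 (16.9 to 27.8) in choroid plexus among these types. Summed by genotype, A930015D03Rik had 25.2 CPM in wt/wt and 25.9 in mut/mut oligodendrocytes, and was lower in mut/mut in the others of the 5 types compared. H2-T22 had 3.29 and 4.09 in astrocyte or NSC and was likewise lower in mut/mut in the others. Of these types, Lrrc73 was lower in mut/mut only in choroid plexus, with 21.1 in wt/wt and 9.08 in mut/mut. These are descriptions of the contrast that chose the genes. Bricd5 had 15 UMIs in all, each from a mut/mut mouse.

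**Figure D4:**
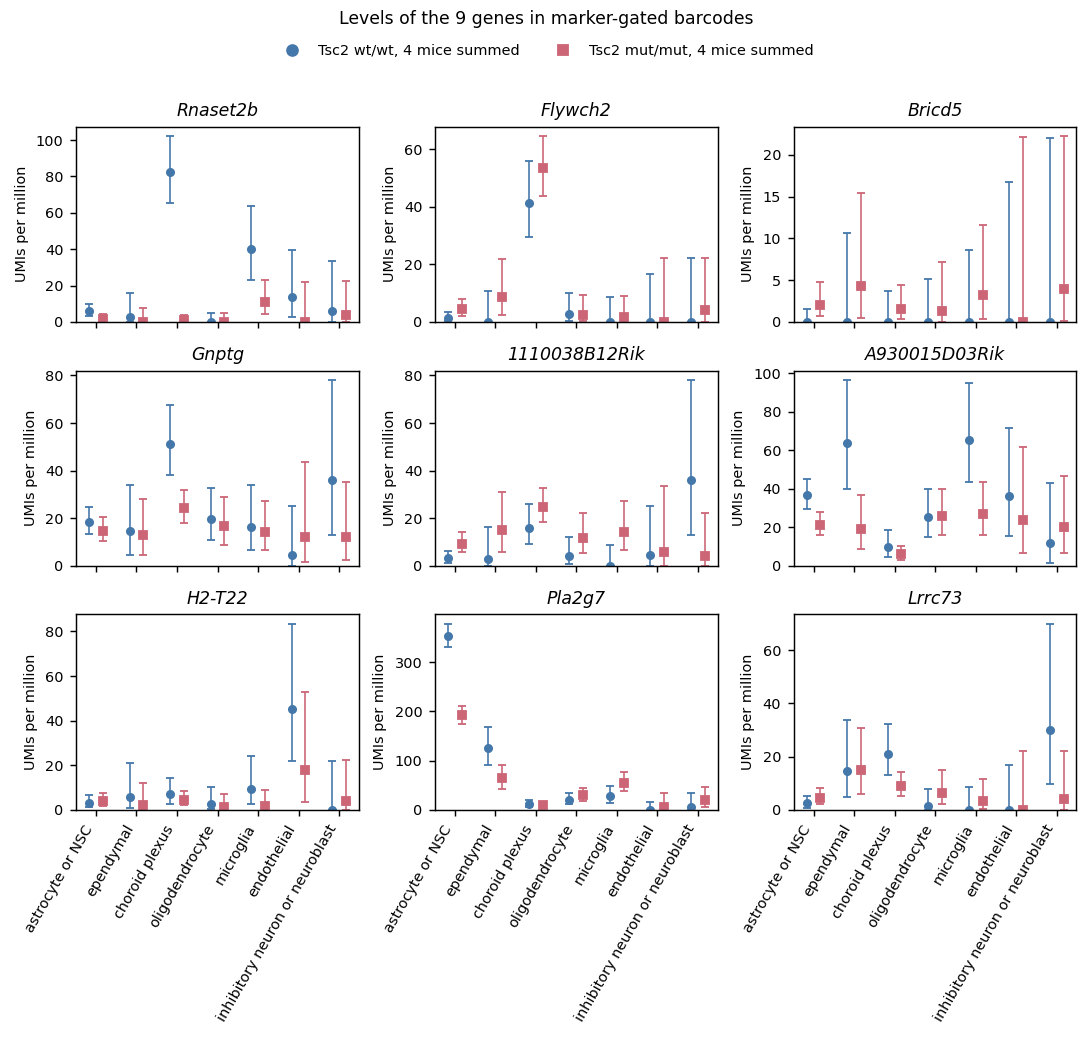
Levels of the 9 members in CPM (vertical axis, linear, from 0) in 7 marker-gated cell types (horizontal axis), with the UMIs of the 4 mice of a genotype summed. Bars are exact Poisson 95% intervals for counting error only. Pla2g7 peaks in astrocyte or NSC barcodes, at 353 in wt/wt and 192 in mut/mut, while Rnaset2b is highest in choroid plexus in wt/wt, at 82.4, and in microglia in mut/mut, at 11.2, with 1.01 in choroid plexus.

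For members with at least 50 UMIs in gated barcodes, the genes with the most similar levels over the 7 cell types were looked up among 12597 genes. Pearson's r of log2(CPM + 1) was used as a description. For Pla2g7 these were Etnppl (r = 0.990), Cbs (0.989), Gm6145 (0.983), Sfxn5 (0.980) and Gpld1 (0.977). For Flywch2 they were Anapc16 (0.997), D130020L05Rik (0.992), Pgk1 (0.990), Mtx2 (0.982) and Svip (0.981). For the other members r of the 5 nearest genes was between 0.941 and 0.993, on 59 to 300 UMIs per member. The types share libraries and differ in depth, and some hold fewer than 5 UMIs of a member.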

How the data were processed

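Droplet libraries of V-SVZ nuclei were analysed, 1 for each of 8 mice, 4 per genotype as labelled. The authors deposited raw counts of UMIs per gene and barcode, made with Cell Ranger 7.0.1 (per the file headers) on GRCm38 (mm10) with 60000 barcodes forced per library. Seurat 4 is named in their processing notes. Whether introns were counted was not given in the sources used here. The counts carry no normalization.

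Counts were summed per mouse over barcodes of 100 to under 200 genes, of at least 300 genes, nucleus-like (under 20% mitochondrial UMIs), mitochondria-rich and marker-gated barcodes. Doublets were not removed. Sums were fitted with edgeR 4.0.16 in R 4.3.3 (TMM, filterByExpr, robust quasi-likelihood test, Benjamini-Hochberg adjustment over all genes, threshold 0.05). Mouse was a block in comparisons within mice. The genotype fits and the fit of larger against small barcodes within mouse were tested on simulated data. The interaction, the nucleus-like against mitochondria-rich fit and the cell type fits were not. Coordinates came from GENCODE M21, which placed 32235 of 32285 identifiers. Depth, from 2360897 to 13771852 UMIs per mouse in small and from 3738536 to 11633811 in larger barcodes, limits the precision. Poisson intervals cover counting error only. P-values take the mouse as the replicate. In comparisons within mice they weigh the difference against how much it varied from mouse to mouse.

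The members, cell type markers and lists were chosen with earlier results of these data known. Besides the members, the text names Tsc2, its neighbours Mlst8, Pkd1 and Nthl1, the nearest tested gene on either side of each member, paralogs, up to 10 other genes per genotype fit with the smallest p past the threshold, and up to 5 genes most like a member over cell types. Glo1 was named after its values were seen. Alternatives were other scaling, no filter, DESeq2 1.42.0, a replicate block, leaving out each mouse, and other barcode limits. Replicate numbers were not used as pairs in the main fits, and whether same-numbered mice were handled together was not tested. Protein sequences of the copies were not compared here.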

Additional observations from a re-analysis of the deposited data

Results flagged for a closer look

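Of 36 groups of 4 mice (9 genes, 2 genotypes, 2 barcode classes), 1 had a mouse far from the other 3, where chance gives about 1 in 20. Pla2g7 in barcodes of 100 to under 200 genes was 190 UMIs per 1000000 in Tsc2 wt/wt replicate 1, against 146, 146 and 153 in the other wt/wt mice. The gap to the nearest of them was too wide, relative to the whole range, for a group of 4.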

How the results depend on the processing

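The members kept the direction of their genotype difference under each alternative run in both barcode classes. This was 9 of 9 in each but the minimum of 500 genes, where Bricd5 was not tested and 8 of 8 kept it. The members were chosen on this contrast in these same mice, so nothing is read from the kept direction. In barcodes with at least 300 genes, the 2 genes past the threshold became 7 in DESeq2, 0 with a replicate block, 0 with a minimum of 500 genes and 0 without choroid plexus barcodes, an alternative chosen after seeing the data. Leaving out 1 mouse gave 0 to 3, with 0 without any 1 wt/wt mouse or mut/mut replicate 2 and 1 without mut/mut replicate 1 or 3. In barcodes of 100 to under 200 genes, the 27 genes became 110 with no filter, 35 with the replicate block and 17 (without wt/wt replicate 1) to 44 (without mut/mut replicate 1) with 1 mouse left out. The 9 called genes of chromosome 17 became 19 with no filter and 5 to 10 with 1 mouse left out. Same-numbered mice deviated with r from −0.10 to 0.06, and the replicate numbers were not used as pairs in the main fits. Such an r cannot show whether same-numbered mice were handled together, which was not tested.

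The interaction of genotype and class had 0 genes, 6 with no filter and 0 to 3 with 1 mouse left out (3 without mut/mut replicate 4). Its log2 values changed sign with 1 mouse left out for Rnaset2b (−0.29 to 0.43), Flywch2 (−0.30 to 0.28), Gnptg (−0.034 to 0.24), 1110038B12Rik (−0.24 to 0.072), Pla2g7 (−0.15 to 0.033) and Lrrc73 (−0.12 to 0.18). With no filter, the gated cell types had 5947 (ependymal, from 3337), 11098 (choroid plexus, from 6289), 7190 (oligodendrocyte, from 3663) and 6913 (microglia, from 3880) genes past the threshold. A930015D03Rik in oligodendrocytes, at 0.05, turned to −0.036 with at least 4 markers, −0.17 with a split at 10% mitochondrial UMIs, −0.15 with DESeq2 size factors and −0.19 with no filter, and ranged from −0.23 to 0.16 with 1 mouse left out. DESeq2 size factors shifted the median of all genes by −0.45 in choroid plexus, −0.37 in microglia and −0.21 in oligodendrocytes. The ependymal fit with the split at 10% was not run, as too few mice remained. The cause of these changes was not tested.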

Other observations

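Outside chromosome 17, 18 genes passed the threshold between the genotypes in barcodes of 100 to under 200 genes. Those with the smallest p included Olah (log2 fold change −3.17), Mmel1 (−1.69), Olfr287 (−2.94) and Ramac (−1.15), which were lower in mut/mut mice, and Gm45890 (3.48), Tmem117 (1.74), Tshz2 (0.84), Bhlhe41 (0.91) and Ptgds (0.81), which were higher. Gt(ROSA)26Sor, the transcript of the locus that holds the tdTomato reporter, was lower by a log2 value of −0.88 (SE 0.11, adjusted p = 9.4e-05, edgeR's quasi-likelihood test).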
